A study of Mus musculus with 71 samples.

Results

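The comparison described here set the cerebellum of 18-month-old (old) wild-type (WT) mice injected with nicotinamide riboside (NR) against that of old WT mice injected with saline. Its 8 arrays, 5 after NR and 3 after saline, were picked by genotype, age and injection as the sample titles give them, out of 71 arrays in all. The assay was a 1-colour bead array, Illumina's Sentrix MouseRef-8 v2, to which labelled copies of the RNA were hybridised. All mice of the series are labelled male and C57BL/6, and the injected mice received daily intraperitoneal NR at 500 mg per kg per day, or saline, for 1 week before the cerebellum was taken. Beside the old WT groups, the injection arm of 29 arrays holds old Csbm/m mice (4 arrays after NR, 3 after saline), 4-month-old (young) WT mice (4 and 4) and young Csbm/m mice (3 and 3). Csbm/m mice, written Csb here, are homozygous for a mutant allele of Csb (Ercc6), and the old WT groups carry no modified allele per the labels. The labels number replicates but do not say that each is its own animal, and a p-value here therefore reflects array-to-array spread, which may be technical.

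NR is a form of vitamin B3 that cells phosphorylate with NR kinases and convert to NAD+. NAD+ carries electrons for the mitochondrial respiratory chain and is consumed by poly(ADP-ribose) polymerases, which act at broken DNA, and by sirtuin deacylases. Csb is a DNA-dependent ATPase that helps transcription past DNA damage, and loss of its human counterpart causes Cockayne syndrome, in which the cerebellum degenerates.

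Of the 10 probes called between the 2 groups, 2 read genes close to this chemistry. Parp2, a polymerase that spends NAD+ at DNA breaks, and Apex1, the endonuclease that cuts DNA at abasic sites in base excision repair, are near neighbours on chromosome 14 with 1 tested gene (Osgep) between them. Their promoters are shown because both genes lie in a stretch of that chromosome where most of the called probes cluster. Each run holds 250 bases before and 50 after the RefSeq start on the plus strand, at chr14:50807666-50807965 for Parp2 and chr14:50924699-50924998 for Apex1 in RefSeq's GRCm38.p6 table. Capitals mark the motif GGGCGG, the motif CCAAT, the motif CACGTG and the motif TATAAA, each searched on both strands.
Parp2: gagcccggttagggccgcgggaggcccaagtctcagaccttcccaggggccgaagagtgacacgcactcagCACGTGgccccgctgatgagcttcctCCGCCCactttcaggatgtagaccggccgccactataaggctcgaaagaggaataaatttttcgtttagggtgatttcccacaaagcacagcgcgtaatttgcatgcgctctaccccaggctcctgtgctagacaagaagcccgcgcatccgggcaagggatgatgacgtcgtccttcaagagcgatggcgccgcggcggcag
Apex1: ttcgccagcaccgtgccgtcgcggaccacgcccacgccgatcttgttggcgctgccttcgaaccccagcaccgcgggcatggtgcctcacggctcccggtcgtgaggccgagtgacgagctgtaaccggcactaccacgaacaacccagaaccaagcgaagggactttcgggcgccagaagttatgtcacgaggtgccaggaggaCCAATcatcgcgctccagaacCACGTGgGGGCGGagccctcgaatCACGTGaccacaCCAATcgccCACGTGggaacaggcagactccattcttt
The Parp2 window holds 1 GGGCGG (read on the other strand), 1 CACGTG and 25 CpG dinucleotides. The Apex1 window holds 1 GGGCGG, 2 CCAAT, 3 CACGTG and 31 CpG. Over the 32851 promoters of the table, 35.7% hold GGGCGG, 37.4% CCAAT, 7.15% CACGTG and 13.6% TATAAA, and the median CpG count is 7. These matches describe the letters of the windows only.

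The arrays labelled old WT saline stood at the level of the other genotype at some genes, and every difference below rests on those 3 arrays. To read them at probes that they had no part in choosing, the genotypes were compared on the 14 young arrays alone (8 WT, 6 Csb), where 10 probes were called (0.0717% of those tested), 6 of them on chromosome 14. At 3 of the 10, all 3 old WT saline arrays lay nearer the young Csb mean than the young WT mean, and at 3 others none did. The 3 are Ncoa4, Arhgap22 and Mapk8, which lie on either side of Csb (Ercc6) itself on chromosome 14. Between Ncoa4 and Ercc6 stand 6 protein-coding genes in the RefSeq order, between Ercc6 and Arhgap22 7, and between Ercc6 and Mapk8 8. Ncoa4 stood at 9.25 ± 0.28 (SD, n = 8) in young WT, 7.57 ± 0.67 (SD, n = 6) in young Csb and 7.57 ± 0.19 (SD, n = 3) in old WT saline arrays, all as log2 normalized intensity. Arhgap22 stood at 6.47 ± 0.39 in young WT, 7.82 ± 0.48 in young Csb and 8.00 ± 0.36 in old WT saline arrays. Mapk8 stood at 11.07 ± 0.19, 11.56 ± 0.13 and 11.63 ± 0.19 in the same order. The young Csb arrays did not all keep to their side. The highest young Csb NR array at Ncoa4 (8.91) and the lowest at Arhgap22 (6.93) were nearer the young WT mean. At Mapk8 all young Csb arrays were nearer the Csb mean. These yardsticks are means of young mice, so age is mixed with genotype when old arrays are set against them. Old Csb means after saline and NR were 7.12 and 7.41 at Ncoa4, 8.11 and 7.96 at Arhgap22, and 11.35 and 11.51 at Mapk8.

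The old WT NR arrays lay with the young WT arrays at these genes, apart from replicate 1 at Arhgap22 and replicate 2 at Mapk8, which were nearer Csb. At Tmem254a, farther away on chromosome 14, the old WT saline arrays kept the WT side, at 9.14 ± 0.38 (SD, n = 3) against 9.53 ± 0.50 in young WT and 7.69 ± 0.33 in young Csb. At Plac9a, its neighbour, 1 of the 3 saline and 4 of the 5 NR arrays were nearer Csb. Lgals3, a galectin gene of chromosome 14 that lies within the stretch of called probes described below, ran the other way: 0 saline and 4 NR arrays were nearer Csb, at 8.34 ± 0.25 (SD, n = 3) after saline and 9.10 ± 0.83 (SD, n = 5) after NR, against 8.29 ± 0.30 in young WT and 9.72 ± 0.63 in young Csb. Off chromosome 14, Clec7a, a receptor of myeloid cells, had 2 saline and 5 NR arrays nearer Csb at 1 probe and 1 and 4 at another, Ccl3 had 1 and 2, and Gpnmb 0 and 1. Age alone may move such counts: the first Clec7a probe stood at 4.91 in young WT, 6.08 in old WT saline and 6.45 in old WT NR arrays. The part of age was not tested. The likeness of the saline arrays to young Csb, and of the NR arrays to young WT, thus held at the 3 genes around Ercc6 and not at all 10 probes. No probe of the array is annotated to Ercc6, so the mutated gene itself was not analysed here. Whether the genotype label holds for these 3 arrays was not tested, and treatment cannot be told apart from whatever else sets these 3 arrays apart. No result below can be given without them, since they are the whole saline group.

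**Figure D1:**
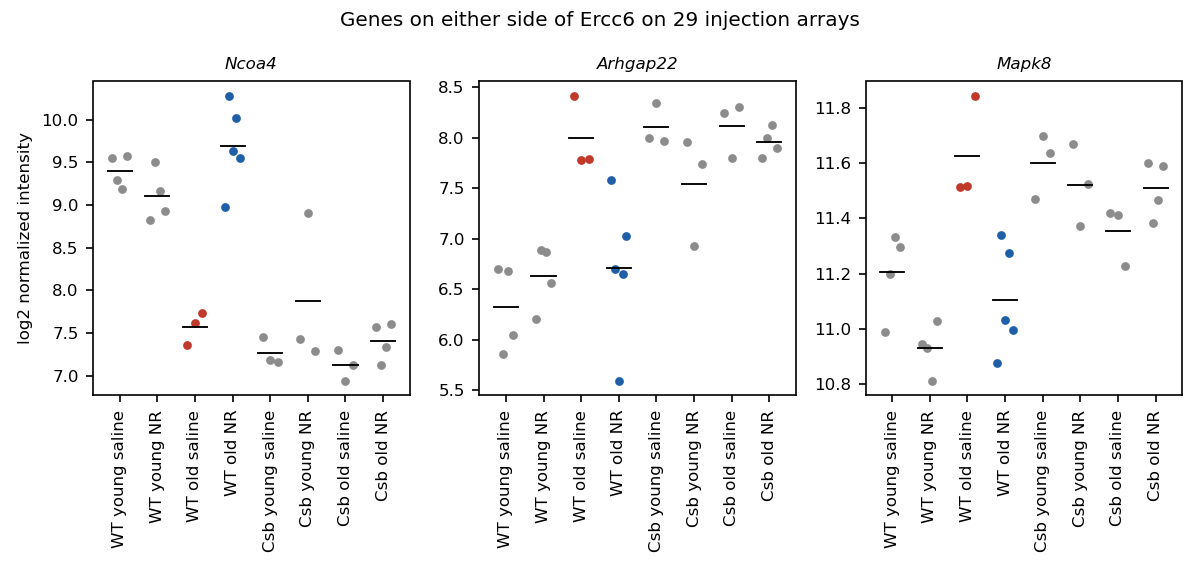
Log2 normalized intensity (vertical axes) of Ncoa4, Arhgap22 and Mapk8 on the 29 injection arrays by group (horizontal axes). Points are arrays and bars are group means. The 3 old WT saline arrays (red) stand with the Csb groups, and the old WT NR arrays (blue) mostly with the young WT groups.

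Background, highest intensity and the share of probes detected had means of 63.9, 32943 and 48.8% after saline and of 64.1, 34170 and 49.1% after NR. An exact two-sided permutation test over the 56 splits of the arrays gave an adjusted p of 0.946 for each of these 3 properties, where 0.0179 is the smallest p the splits allow. Array pairs correlated at 0.960 to 0.988 within saline, 0.953 to 0.986 within NR and 0.953 to 0.991 between the groups. The tissue label was met by high levels of cerebellar markers on both sides: Cbln1 (a granule cell synaptic organiser) stood at 14.02 and 13.96, Zic1 at 12.88 and 12.65 and the Purkinje cell gene Pcp2 at 13.11 and 12.32, in saline and NR arrays. Probes for Calb1, Pcp4 and Cbln3 were detected on none of the 8 arrays. Saline array 3 stood apart at several choroid plexus genes, with Ttr at 7.18 against 13.99 to 14.78 on the other 7 arrays. Leaving that array out lost 1 of the calls below (Psmb5).

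After NR 10 probes were higher and none was lower at a Benjamini-Hochberg adjusted p under 0.05 (limma), out of 13948 probes tested, which is 0.0717%. At an unadjusted p under 0.05 there were 400 higher and 635 lower probes, or 7.42% of those tested. The 10 probes read Parp2, Apex1, Samd4, Ang, Psmb5, Ncoa4, Ogfod3, Abhd4, Tmem260 and 1700123O20Rik, with log2 differences from 0.97 to 3.52. The count depends on NR replicate 1: without that array 276 probes were called, 43 higher and 233 lower. It also moved with array weights, to 270, 52 higher and 218 lower. Those weights were largest for saline array 2 (2.36) and NR array 4 (1.95). The other old WT arrays had weights from 0.30 (NR array 2) to 0.79 (NR array 5), with NR array 1 at 0.37. The weighted count thus leans on 1 array per group. The median difference over all tested probes was 0.01. At all 10 probes every NR array lay above every saline array, as it did at 1.08% of all tested probes. In bulk tissue, fewer cells of a type and less RNA per cell cannot be told apart in any of these differences.

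Parp2 was read at 7.43, 7.23 and 8.06 on saline arrays 1 to 3 and at 8.74, 8.98, 9.40, 8.94 and 8.48 on NR arrays 1 to 5. All 5 NR arrays were above the highest saline array. The group means were 7.58 ± 0.44 (SD, n = 3) and 8.91 ± 0.34 (SD, n = 5), a log2 difference of 1.33 (SE 0.19, adjusted p = 0.000471, limma) or 2.52-fold. The other 21 injection arrays lay between 8.29 and 9.16, so that the saline arrays were low and 4 of the NR arrays were within that range.

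Apex1 was read at 8.89, 8.69 and 8.94 after saline and at 9.95, 9.67, 9.90, 9.97 and 9.90 after NR. Its groups were narrow, with means of 8.84 ± 0.13 and 9.88 ± 0.12, and the log2 difference was 1.04 (SE 0.11, adjusted p = 6.1e-06, limma). All 5 NR arrays lay within the range of the other 21 arrays, 9.35 to 10.10, and all 3 saline arrays below it.

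Samd4 (the mouse counterpart of the fly translational repressor Smaug) stood at 6.90, 6.46 and 6.60 after saline and at 9.09, 9.19, 8.92, 8.90 and 9.0 after NR. The log2 difference was 2.36 (SE 0.18, adjusted p = 2.89e-09, limma), or 5.14-fold, and no saline array came near the lowest of the other 21 arrays, 8.72. Ang, a secreted ribonuclease of the angiogenin family, was read at 5.26, 5.07 and 4.75 after saline, where no array detected it. After NR it was detected on all 5 arrays, at 7.21, 6.05, 6.37, 6.77 and 7.52. It was therefore at least 1.94-fold higher (adjusted p = 0.000296, limma), and 2 of the 5 NR arrays still lay below the lowest of the other 21 arrays (6.46). Detection on all NR and no saline arrays was seen at 0.0117% of all 25697 probes.

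Psmb5, the catalytic proteasome subunit that cleaves after hydrophobic residues, was read at 8.97, 8.58 and 8.45 after saline and at 10.68, 9.36, 9.61, 9.53 and 9.92 after NR. NR array 1 was the highest, and 3 of the 5 NR arrays lay below the range of the other 21 arrays (9.73 to 10.45). The log2 difference was 1.15 (SE 0.21, adjusted p = 0.0179, limma), the weakest of the 10 calls. It was lost without saline replicate 2 (adjusted p = 0.19), saline replicate 3 (0.218) or NR replicate 5 (0.0567), and with median scaling of the arrays (0.0641).

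Ncoa4, the receptor that delivers ferritin to lysosomes, stood at 7.36, 7.61 and 7.74 after saline and at 8.98, 10.28, 9.64, 10.02 and 9.56 after NR, a log2 difference of 2.12 (SE 0.27, adjusted p = 7.92e-05, limma). It was the exception among the 10: here the saline arrays fell among the Csb arrays, and 3 NR arrays lay above all of the other 21 (6.94 to 9.58). Ogfod3, named for its 2-oxoglutarate and iron-dependent oxygenase domain, was read at 7.11, 6.75 and 7.01 after saline and at 8.49, 8.26, 8.42, 8.17 and 8.21 after NR. Its log2 difference was 1.36 (SE 0.15, adjusted p = 6.1e-06, limma), and it was the only called probe outside chromosome 14, on chromosome 11.

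Abhd4, a lipase of N-acyl phospholipid metabolism, stood at 8.86, 8.70 and 8.66 after saline and at 9.38, 10.13, 9.51, 9.74 and 9.76 after NR. The log2 difference was 0.97 (SE 0.13, adjusted p = 0.000139, limma). With the replicate numbers as a block within each genotype and age, the difference was 0.94 and the adjusted p 0.0819.

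The remaining called probes read genes with little annotation. For 1700123O20Rik, a transcript known by its clone name, the probe stood at 4.63, 4.69 and 4.42 after saline, where no array detected it. After NR all 5 arrays detected it, at 8.11, 7.80, 7.91, 8.31 and 8.39, a level at least 4.85-fold above saline (limma adjusted p = 2.13e-13). The other 21 arrays lay between 7.69 and 8.74, and all detected it. Tmem260, a multipass membrane protein, was read at 7.16, 7.14 and 7.02 after saline and at 8.25, 8.51, 8.15, 8.12 and 8.08 after NR, a log2 difference of 1.11 (SE 0.14, adjusted p = 7.92e-05, limma).

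**Figure D2:**
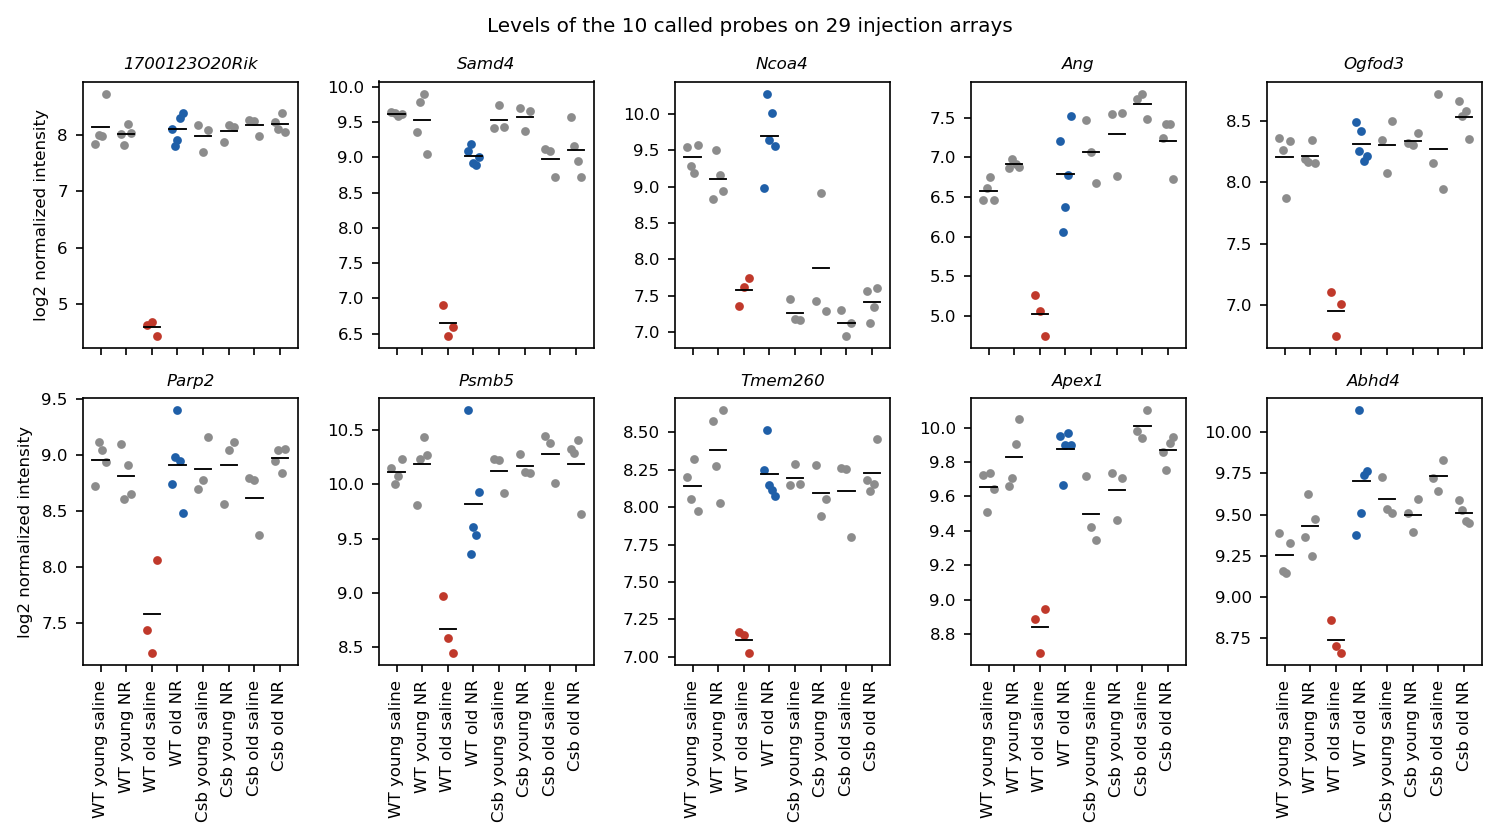
Log2 normalized intensity (vertical axes) of the 10 called probes on the 29 injection arrays by group (horizontal axes); points are arrays and bars are group means. The 3 old WT saline arrays (red) lie below all 26 other arrays at 9 of the 10 probes, and at Ncoa4 they lie with the Csb groups; old WT NR arrays are blue.

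Seen across the arm, it was the saline group that stood apart. At 9 of the 10 probes the 3 old WT saline arrays lay below all 26 other injection arrays, the young WT and the Csb saline arrays included. The diet arm of the series differs in age and treatment. Per the labels, its mice were aged between the young and the old injected mice. They were kept for months on standard, high-fat, resveratrol-supplemented or calorie-restricted diets, and no injection is given for them. They are therefore not matched controls for the old injected mice. In this diet arm, which was normalized separately, all 42 arrays detected all 10 probes. There 1700123O20Rik ranged from 8.33 to 9.18 on the 17 WT arrays and Ang from 7.06 to 8.11. Samd4 ranged from 7.49 to 9.38 on the same arrays, with its lowest value under that of the other 21 injection arrays (8.72). Ncoa4 lay between 9.16 and 9.88 on WT diet arrays and between 7.43 and 8.51 on the 25 Csb diet arrays. Levels of the 2 arms are not on 1 scale. Psmb5 lay between 10.71 and 11.45 on WT diet arrays and between 9.73 and 10.45 on the other 21 injection arrays. The old WT saline level of Ncoa4, 7.57, therefore cannot be placed in a genotype range of the diet arm.

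A fit of the 2 old WT groups alone kept 4 of the 10 calls. It lost Parp2 (adjusted p = 0.428), Ang (0.385), Psmb5 (1), Abhd4 (0.57), Apex1 (0.0599) and Tmem260 (0.0599), with the same log2 differences. This fit has fewer degrees of freedom and takes the spread from these 8 arrays only. Which of these lost the calls was not tested.

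NR differences at the same probes were then compared between genotypes and ages, to ask whether they differ from those of old Csb and young WT mice. The NR difference of old WT exceeded that of old Csb at 5 probes (0.0358% of those tested) and that of young WT at 6 (0.043%), all of them among the 10. Called in both were 1700123O20Rik, Samd4 and Apex1. For 1700123O20Rik the difference of log2 differences was 3.50 (SE 0.25, adjusted p = 1.64e-09) by genotype and 3.65 (SE 0.24, adjusted p = 2.5e-10) by age in limma. For Samd4 the values by genotype and by age were 2.24 (SE 0.26) and 2.45 (SE 0.25), with adjusted p-values of 2.29e-05 and 1.68e-06. For Apex1 they were 1.18 (SE 0.17) and 0.86 (SE 0.16), with adjusted p-values of 0.000764 and 0.029. Ang and Abhd4 differed by genotype only, and Ncoa4, Ogfod3 and Parp2 by age only, in the sense of passing that test and not the other. Psmb5 and Tmem260 passed neither. With the replicate numbers as a block within each genotype and age, the counts fell to 2 by genotype and 3 by age. By genotype 1700123O20Rik and Samd4 still passed (adjusted p = 0.000155 and 0.00827), and Apex1 (0.0669), Ang (0.083) and Abhd4 (0.512) did not. By age 1700123O20Rik, Samd4 and Parp2 (adjusted p = 3.12e-05, 0.000647 and 0.024) still passed, and Ogfod3 (0.0729), Ncoa4 (0.0837) and Apex1 (0.471) did not.

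In the comparison groups the NR differences of the 10 probes were smaller. Their largest absolute log2 difference was 0.47 in old Csb, at Ang (95% interval from -1.0 to 0.07), and 0.34 in young WT, also at Ang (from -0.15 to 0.84). Parp2 differed by 0.35 in old Csb (from -0.07 to 0.77) and by -0.14 in young WT (from -0.53 to 0.25). Over all probes, limma called 0 for NR in old Csb and 0 in young WT, where 1486 (10.7%) and 903 (6.47%) had an unadjusted p under 0.05. The age and genotype tests use the same old WT saline arrays as the NR comparison itself.

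Several of the called genes are read by a second tested probe, and the pairs differed. The second Parp2 probe stood at 10.62 ± 0.32 (SD, n = 3) after saline and 10.36 ± 0.32 (SD, n = 5) after NR, a log2 difference of -0.26 (95% interval from -0.63 to 0.10, adjusted p = 0.806, limma). For Apex1 the second probe stood at 7.31 ± 0.29 and 7.27 ± 0.17 (difference -0.04, from -0.42 to 0.34), and for 1700123O20Rik at 10.26 ± 0.18 and 10.44 ± 0.14 (0.17, from -0.06 to 0.41). The second Tmem260 probe went the way of the called one, at 5.09 ± 0.16 and 5.64 ± 0.19 (adjusted p = 0.378), and was detected on only 6 of the 29 arrays. The 2 other Samd4 probes were detected on none of the 29 arrays. In all 4 genes with a second tested probe its 95% interval (0.26 to 0.84 for Tmem260) lay below the log2 difference of the called probe.

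**Figure D3:**
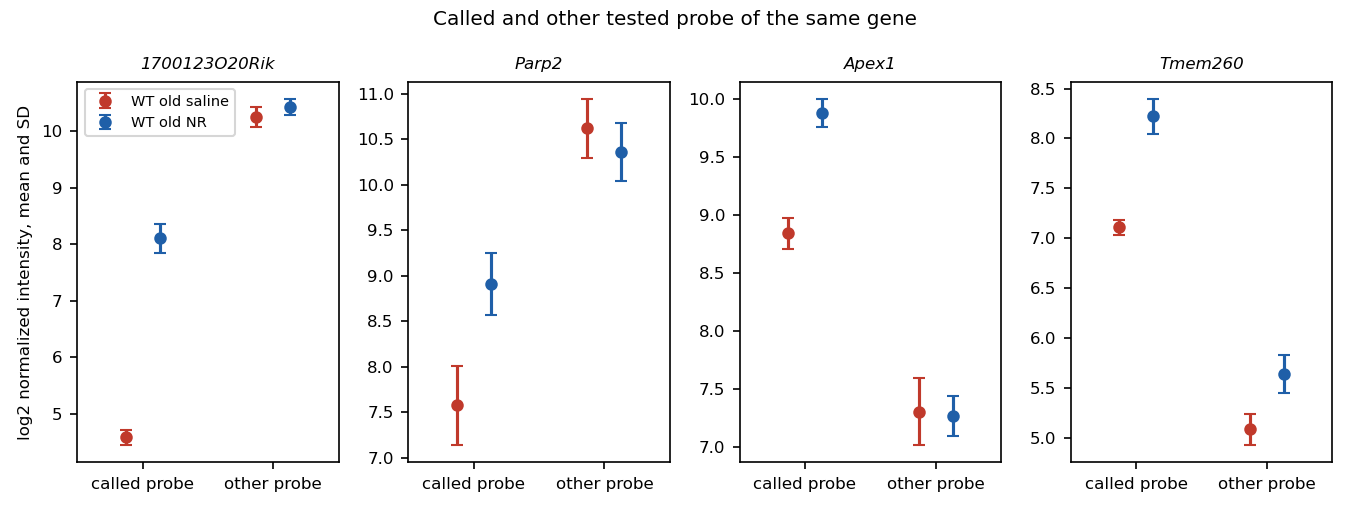
Mean log2 normalized intensity with SD (vertical axes) of the called probe and of the other tested probe of 4 genes, for 3 old WT saline (red) and 5 old WT NR (blue) arrays. The groups are apart at the called probe of all 4 genes and overlap within their SD at the other probe of Parp2, Apex1 and 1700123O20Rik.

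The called probes clustered by position. Chromosome 14 carries 3.2% of the tested probes and 9 of the 10 called. At an unadjusted p under 0.05 it held 14.1% of its tested probes, against 5.25% to 9.87% on the 19 other chromosomes with at least 100 tested probes, and 14 of the 26 probes with an unadjusted p under 0.001 were on it. In old Csb and young WT mice its shares for NR were 11.2% and 5.15%. From Samd4 to 1700123O20Rik, 42 consecutive tested genes hold 58 probes. Of these, 8 were called and 26 (44.8%) had an unadjusted p under 0.05, 18 higher and 8 lower. On the rest of the chromosome that share was 9.51%. The bounds of this stretch were set from the called probes, so the contrast is a description without a test.

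Neighbours within the stretch differed in both directions. Fbxo34, an F-box protein, had probes at 0.40, 0.51 and -0.47 on the log2 scale. Ttc5, a cofactor of p53, had probes at 0.71, 0.52 and -0.28. Rnase4, which lies beside Ang and shares its promoter region in mammals, stood at 9.83 after saline and 9.14 after NR at 1 probe (adjusted p = 0.536) and differed by 0.21 at the other. Mettl17, a mitochondrial ribosome assembly factor, had differences of -1.02 and -0.59 at its 2 probes. None of these passed the adjusted threshold.

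**Figure D4:**
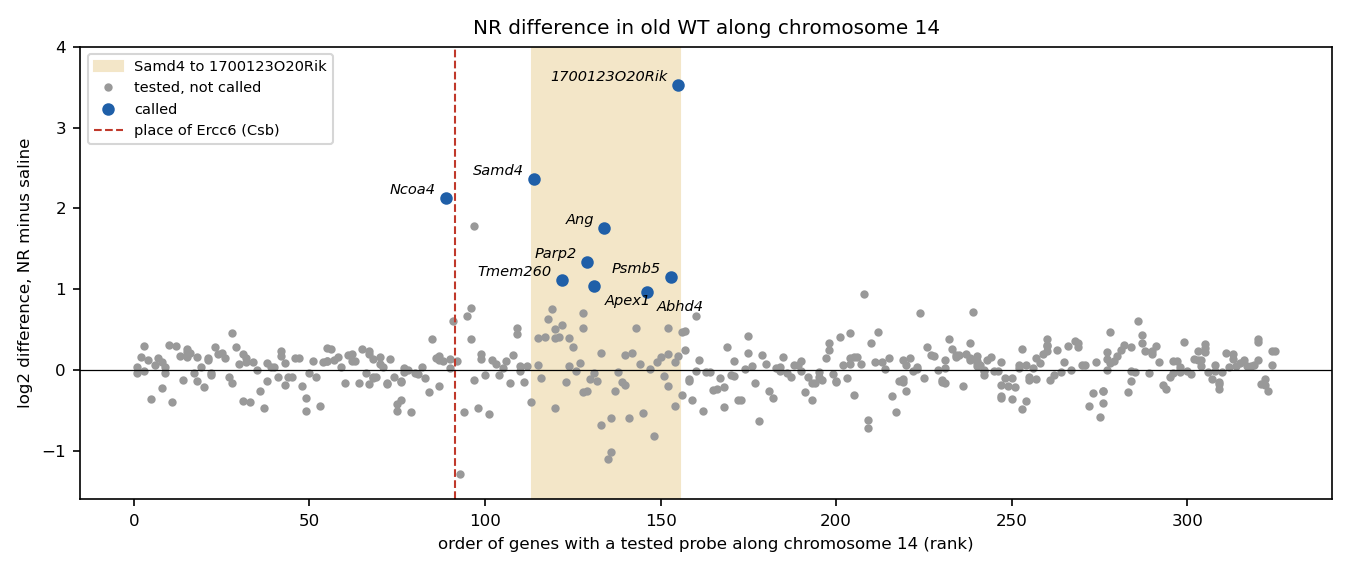
Log2 difference of NR minus saline in old WT (vertical axis) for each tested probe on chromosome 14, against the rank of its gene among the 325 genes with a tested probe (horizontal axis). The shaded stretch of 42 genes holds 8 of the 9 called probes (blue), and the ninth, Ncoa4, lies just before the place of Ercc6 (dashed line).

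No probe was called lower, and the 10 with the lowest p in that direction are given as values. Mettl17 was nearest to the threshold, at 9.01, 8.79 and 9.34 after saline and 8.21, 7.46, 8.60, 7.92 and 7.98 after NR, a log2 difference of -1.02 (SE 0.21, adjusted p = 0.053, limma). It passed with NR replicate 3 left out (adjusted p = 0.00497), with NR replicate 1 left out (0.0164) and under 5 other settings. Arhgap22 differed by -1.29 (SE 0.30, adjusted p = 0.207) and Mapk8, the stress kinase JNK1, by -0.52 (SE 0.12, adjusted p = 0.187). These 3 are the ones on chromosome 14.

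The remaining 7 lower probes were the unnamed probe ILMN_2776710 (-1.51, adjusted p = 0.0848), Traf3ip2 (-0.60), Bex2 (-0.45), Ptpru (-0.60), Agap3 (-0.62), Znrd1 (-0.57) and Krt10 (-0.76). In 8 of the 10 every NR array lay below every saline array, which holds for 0.882% of all tested probes. Traf3ip2, an adaptor of interleukin-17 signalling, was detected on all 3 saline arrays and none of the 5 NR arrays, as were 0.0117% of all 25697 probes. Bex2, a brain-expressed X-linked gene, was read at 13.24, 13.11 and 13.17 after saline and 13.05, 12.38, 12.78, 12.56 and 12.84 after NR, where the other 21 arrays lay between 12.93 and 13.24.

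Abundant mitochondrial and ribosomal transcripts were low on 3 of the 5 NR arrays. The families below were picked by gene symbol after the calls made without NR replicate 1 had been seen, so they are described and not tested. Subunits of the respiratory chain and ATP synthase (68 nuclear genes, 81 probes) had a mean level of 11.82, 11.61 and 11.27 on saline arrays 1 to 3. On NR arrays 1 to 5 their mean was 11.84, 10.40, 10.93, 10.81 and 11.44. NR array 1 thus stood with saline array 1, whereas NR arrays 2, 3 and 4 lay below every one of the other 21 arrays (11.32 to 11.84), and so did saline array 3 by a small margin. Cytosolic ribosomal proteins (55 genes, 64 probes) gave the same picture, at 12.10, 11.88 and 11.56 after saline and at 12.13, 10.85, 11.26, 11.24 and 11.78 after NR, against 11.70 to 12.24 on the other 21 arrays.

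With all 8 arrays no probe of either family was called, where 0.0717% of all tested probes were. At an unadjusted p under 0.05, 47 of 81 and 31 of 64 were lower, against 635 of all 13948 tested probes. The median log2 difference was -0.54 for the first family and -0.49 for the second. Without NR replicate 1, limma called 276 probes (1.98% of 13934), 43 higher and 233 lower, and 40 of the 81 respiratory probes (49.4%) and 22 of the 64 ribosomal probes (34.4%) were among the lower ones, against 1.67% of all probes. Array weights, which count uneven arrays less, called 270 probes, 190 of them shared with the 276.

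Ndufa3, an accessory subunit of complex I, was read at 12.60, 12.35 and 11.34 after saline and at 12.55, 10.39, 11.05, 10.48 and 11.42 after NR. It differed by -0.92 with all arrays (adjusted p = 0.564) and by -1.26 without NR replicate 1 (SE 0.25, adjusted p = 0.0131, limma). Uqcr11 of complex III differed by -0.88 and, without that array, by -1.21 (SE 0.23, adjusted p = 0.0107). Some subunits differed less: Atp5a1, the alpha subunit of ATP synthase, by 0.11 and 0.02, and Ndufv1, the NADH-binding subunit of complex I, by 0.13 and 0.15 in the same order. Rpl38 of the large ribosomal subunit had probes at -1.19 and -0.92 without NR replicate 1 (adjusted p = 0.0324 and 0.0281).

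Short genes outside both families were low on the same arrays. The lower probes called without NR replicate 1 had a median annotated gene span of 5488 bases, against 23784 over the named probes tested. Other short genes (span of at most 4518 bases, the 10th percentile of the named probes tested; 1246 probes outside both families) had mean levels of 8.62, 8.49 and 8.33 after saline and of 8.56, 8.05, 8.25, 8.28 and 8.50 after NR. NR array 2 was again the lowest, with a smaller spread between arrays than in the families. The mean over all remaining named genes (11750 probes) lay between 8.39 and 8.46 on the 8 arrays. Quantile normalization holds a mean over most of the probes nearly steady, so this flatness is no contrast to the short genes. The part of gene length in these levels was not tested.

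**Figure D5:**
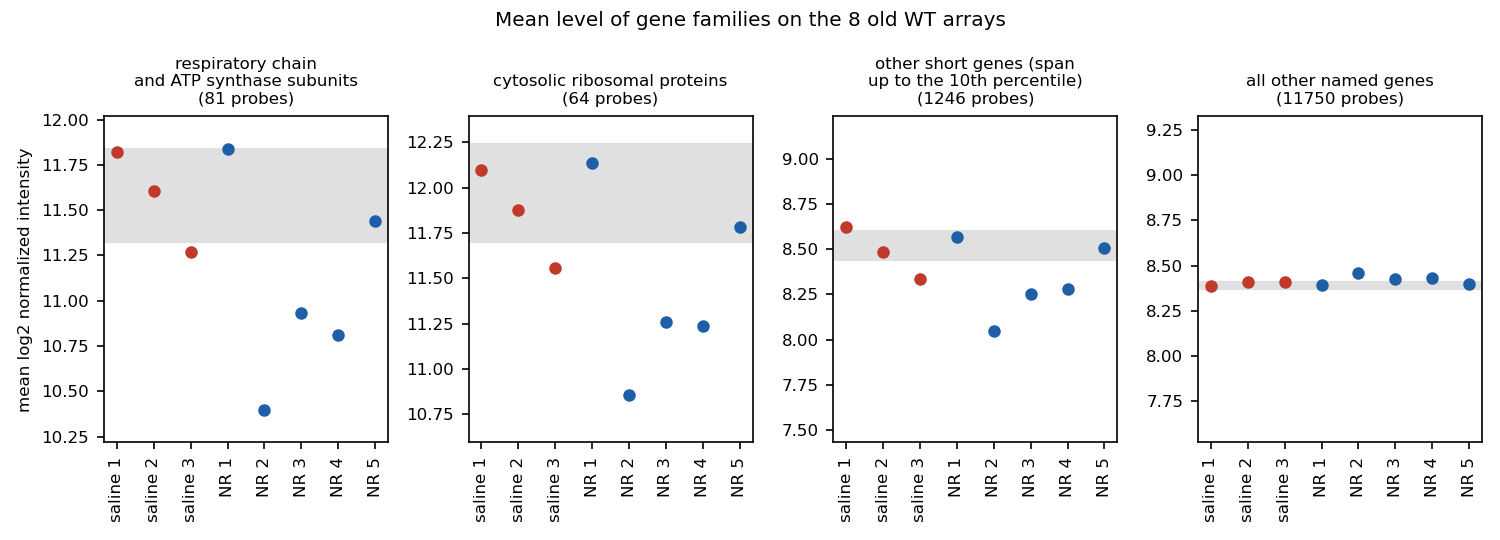
Mean log2 normalized intensity (vertical axes, each spanning the same number of log2 units) of 4 groups of probes on each of the 3 old WT saline arrays (red) and 5 old WT NR arrays (blue); the grey band is the range of the other 21 injection arrays. NR arrays 2, 3 and 4 and saline array 3 lie below the band in the families and in other short genes, and NR array 1 lies within it.

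The lists for NAD+ metabolism and its consumers held few differences besides the ones above. Of 31 genes for NAD+ synthesis and use, 14 had a tested probe, and 1 of their 19 probes (Parp2) was called higher and 0 lower, with a median log2 difference of -0.03. Over all tested probes 0.0717% were called, and the list's 1 call is that of Parp2 alone. At an unadjusted p under 0.05, which 7.42% of all tested probes met, the list held Parp2 and the nucleoside transporter gene Slc29a2, lower by -0.44 (adjusted p = 0.657). Nmrk1, an NR kinase, stood at 6.84 ± 0.14 after saline and 6.77 ± 0.14 after NR. Nampt, the rate-limiting enzyme of NAD+ salvage from nicotinamide, stood at 7.64 ± 0.21 and 7.67 ± 0.24, and Nadk, which makes NADP+ from NAD+, at 10.47 ± 0.05 and 10.50 ± 0.23. The neuronal adenylyltransferase Nmnat2 differed by 0.40 at both of its probes (adjusted p = 0.744 and 0.724, limma). Parp1, the major poly(ADP-ribose) polymerase, had 3 probes, at 0.27, -0.02 and -0.03.

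Of the sirtuins, 0 of 6 probes of 5 genes were called and 0 had an unadjusted p under 0.05, with differences from -0.19 (1 probe of Sirt5) to 0.12 (Sirt3). Among 12 tested genes of transcription-coupled and excision repair, 1 of 19 probes (Apex1) was called, again against 0.0717% of all tested probes, and no other had an unadjusted p under 0.05. Ercc8, which encodes the partner CSA of CSB, differed by 0.00 and 0.11, and the repair scaffold Xrcc1 by -0.15. The lists of mitochondrial biogenesis (16 probes) and mitochondrial stress response (15 probes) had 0 called, against 0.0717% of all tested probes. Both probes of Ddit3, the stress factor CHOP, were lower at unadjusted p (-0.52 and -0.53, adjusted p = 0.538 and 0.598), and so was the chaperonin Hspe1 (-0.82, adjusted p = 0.536). These were 3 of the 15 stress response probes, where 635 of all 13948 tested probes were lower at an unadjusted p under 0.05.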

How the data were processed

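RNA of mouse cerebellum was read on bead arrays. The deposited table gives an average intensity per probe and array on a linear scale, not normalized per the file headers, with a detection p-value per probe, and per the submitters' processing notes GenomeStudio 1.9.0 was used. The authors' deposited series matrix holds z-scores, a score per probe used as an alternative only. Other steps before deposit: not given in the sources used here. Of 25697 probes, 23978 carry 1 gene symbol in the platform annotation, 1719 none and 0 several, and 23962 were matched by Entrez ID to the RefSeq gene table, used for names, chromosomes and gene order. 0 columns of other samples were left out.

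The 29 injection arrays were normalized together in R 4.3.3 with limma 3.58.1 (neqc: normexp background from the detection p-values, quantile normalization, offset 16, log2). Probes with detection p under 0.01 on at least 3 arrays were kept (13948, of which 13147 are named). All 8 groups entered 1 linear model (lmFit, eBayes), and calls are at a two-sided Benjamini-Hochberg adjusted p under 0.05 over all probes tested. A probe not detected on any array of a group gets a fold as a lower bound, against the higher of its own level and the lowest detected level on each array; its log2 differences and interactions are as fitted and not exact. The fit was tested on simulated data with independent noise, the same spread in every group and no array effects. That test therefore does not cover arrays of uneven quality. Named probes are all called ones and, in a direction with fewer than 10 calls, those with the lowest p up to 10. Other probes were chosen after their values were seen: the genes beside them on chromosome 14, the second probes of called genes, the gene families and members of lists. The comparison and the gene lists were chosen with earlier results of these data known.

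Deviations of same-numbered old WT arrays from their group means correlated at r = 0.53, 0.11 and 0.73 for numbers 1 to 3, all over 0.1. Numbers 4 and 5 of NR have no partner. In old Csb the values were 0.16, 0.20 and 0.12, and in young Csb 0.40, -0.10 and -0.13. Young WT gave -0.55, -0.39, -0.02 and -0.16 for numbers 1 to 4. The labels give no pairing, and whether the numbers pair arrays was not established. No chip, position or scan date is given, so no batch could be entered. The number of arrays limits the precision, and the standard errors carry it. Alternatives were the background correction, the scaling, the filter on dim probes, the groups in the fit, array weights, a variance trend, the replicate block, the background level as a covariate, the series matrix values and leaving out each array. The block within each genotype and age and the comparison on young arrays alone were added after seeing the data.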

Additional observations from a re-analysis of the deposited data

Results flagged for a closer look

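Each named probe and array property was searched for a single array far from the others among the 5 old WT NR arrays. Of the 23 sets of values 2 had one, and chance alone gives about 5% of such sets. Apex1 stood at 9.67 on old WT NR array 2 and at 9.90 or above on the other 4 NR arrays. ILMN_2776710 stood at 8.59 on NR array 3, with the next at 7.28.

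In a test of the difference itself, the NR difference of old WT was larger than that of old Csb (limma, differences of log2 differences) for 1700123O20Rik (3.50), Samd4 (2.24), Ang (2.23, adjusted p = 0.00429), Apex1 (1.18) and Abhd4 (1.19, adjusted p = 0.00374). It was larger than that of young WT for 1700123O20Rik (3.65), Samd4 (2.45), Ncoa4 (2.42, adjusted p = 0.00318), Ogfod3 (1.35, adjusted p = 0.00278), Parp2 (1.47, adjusted p = 0.029) and Apex1 (0.86). The 3 old WT saline arrays enter all of these values, and except at Ncoa4 they were the lowest of the 29 arrays.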

How the results depend on the processing

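All 10 called probes kept their direction under every alternative run, and 0 of the 20 named probes reversed. The count for NR in old WT was 10, between 9 and 11 under most settings (11 with the replicate block, 9 with the block within each genotype and age), 4 in the fit of the compared groups alone, 270 with array weights (52 higher, 218 lower) and 9 to 276 when 1 array was left out, with 276 without NR replicate 1 and 9 without saline replicate 2. The count by genotype went from 5 to 3 (compared groups alone), 14 (array weights) and 2 (block within genotype and age), and was 5 to 7 without 1 array. By age it went from 6 to 124 (array weights) and 3 (block within genotype and age), and was 4 to 30 without 1 array, 30 being without old WT NR replicate 1. NR in old Csb gave 0, 1 without the filter on dim probes, 1 at detection p under 0.05, 92 with array weights and 0 to 11 without 1 array (11 without Csb saline replicate 1). NR in young WT gave 0, 7 with array weights and 1 with the block within genotype and age. The replicate block changed no call among the 10. Probes detected on every array of 1 group and none of the other numbered 6, and 7 to 23 without 1 array. The NR minus saline difference in background was 0.18 and ranged from -1.91 to 1.64 without 1 array (-0.0274 without NR replicate 4, -0.329 without NR replicate 5), and that in the percent of probes detected was 0.348 and ranged from -0.381 to 0.864. The cause of these changes was not tested. Ang and 1700123O20Rik were not above background on the saline arrays, so their folds are bounds.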

Other observations

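Several choroid plexus markers, not all, set 1 saline array apart. Ttr, the thyroid hormone carrier that choroid plexus secretes in quantity, stood at 14.56, 14.73 and 7.18 on saline arrays 1 to 3 and between 13.99 and 14.78 on the NR arrays. Kl (4.95), Folr1 (4.50) and Aqp1 (4.91 at 1 of its probes) were also lowest on saline array 3, with 9.02, 7.70 and 8.48 on saline array 2. The summed intensity of the list ranged from 1676 to 30787 after saline and from 19123 to 32973 after NR. Of its 9 tested probes 0 were called, with a median log2 difference of 1.05. Otx2 and Clic6 differed by -0.15 and 0.32 between the groups. Otx2 did not set saline array 3 apart, at 9.12, 9.32 and 9.12 on saline arrays 1 to 3. Clic6 was lower on it by a small margin, at 9.96, 10.52 and 9.68 in the same order. Young WT saline array 4 was as low for Ttr, at 6.39. Without saline array 3 the comparison called 10 probes, 9 of them shared with the 10.

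Of the other cell types, oligodendrocyte markers had a median log2 difference of 0.32 over 14 probes, microglia markers -0.06 over 9, astrocyte markers 0.03 over 10 and endothelial markers 0.14 over 7, each with 0 called. Over all tested probes 0.0717% were called, so lists of this size would seldom hold a call. Blood markers had a median of -0.48 over 3 probes. Lists for the circadian clock (21 probes), immediate early genes (8), glucocorticoid-responsive genes (14) and inflammation of the ageing brain (18) had 0 called and medians of -0.06, 0.04, -0.02 and 0.06. Cerebellar neuron and Purkinje markers had a median of -0.10 over 10 probes with 0 called. Pcp2 and Pvalb, 2 of the 10, differed by -0.79 and -0.46 at an unadjusted p under 0.05 (adjusted p = 0.563 and 0.589, limma). Over all tested probes, 635 of 13948 were lower at that unadjusted level.

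Tacc1, Krt24 and Tmem151b parted the groups by detection without a call: Tacc1 was detected on all 5 NR arrays and no saline array at means of 5.91 and 5.77, and Krt24 and Tmem151b on all 3 saline arrays and no NR array.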
